A study of Homo sapiens with 6 samples.

Results

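Nucleolar ribosome biogenesis factors are proteins that make ribosomal RNA precursors into ribosomal subunits, and 41 of their genes were examined here among 20136 protein-coding genes of the annotation. The members were chosen by name, as core assembly factors of the nucleolus, with earlier results of these data known. Each was looked up by its symbol in the promoter, typical enhancer and super-enhancer lists of N-Myc, of JMJD6 and of both proteins. Common peaks that overlapped those entries were taken with them. A member that none of these lists named was counted as not listed. By role, 4 members are abundant nucleolar proteins (NCL, NPM1, NOLC1 and LYAR), 3 form the core of box C/D small nucleolar ribonucleoproteins (FBL, NOP56 and NOP58), 20 act on the small ribosomal subunit and 14 on the large one.

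The lists came from ChIP-seq, which sequences the DNA that an antibody pulls down with its protein, in the neuroblastoma line CHP-134, which is of human origin and carries an amplified MYCN gene. Of 6 samples, 3 were pulled down with an antibody against N-Myc, the transcription factor encoded by MYCN, and 3 with an antibody against JMJD6, a jumonji domain protein. All samples were of this line with no treatment beyond cross-linking named in the labels, but chromatin for N-Myc was fixed with formaldehyde alone and chromatin for JMJD6 with disuccinimidyl glutarate and then formaldehyde, so that antibody and cross-linking cannot be told apart between the lists. Each list pools the replicates of an antibody and gives positions without a height, score or read count. The depth behind a peak is therefore unknown, no value exists for a single sample, no spread between replicates could be computed, and no difference below was tested. Confidence intervals are exact (Clopper-Pearson) 95% intervals and describe counting error alone. Coordinates count from 1 and refer to GRCh37.

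A ribosome is built around ribosomal RNA that is transcribed, cut, chemically modified and folded in the nucleolus. Small nucleolar ribonucleoproteins of the box C/D class, with the methyltransferase fibrillarin, guide the methylation of this RNA, while a large early particle, the small-subunit processome, and a series of large-subunit precursors carry out the cuts and the folding. Myc proteins dimerize with MAX and bind E-boxes, of which CACGTG is the canonical form and CACGCG a noncanonical form, and ribosome biogenesis genes are among the best known targets of the Myc family.

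Of the E-box forms searched, CACGTG and CACGCG, more member peaks held the canonical CACGTG, and its sites of the members described most fully below are printed first. Capitals mark CACGTG, sequences are 5′ to 3′ on the strand of the gene from the GRCh37 reference, and distances are from the start site that the promoter list used, to the first base of the E-box. For each member the site nearest the peak midpoint is shown. For NPM1 and UTP18, 1 stretch holds both sites, which lay 11 and 38 bp apart.
NCL, 719 bp downstream (chr2:232328469-232328498, minus strand): accaggtaccccCACGTGgccgcgccgcct
NPM1, 870 and 881 bp downstream (chr5:170815558-170815614, plus strand): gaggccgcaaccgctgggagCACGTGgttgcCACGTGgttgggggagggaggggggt
NOP56, upstream of the start site (chr20:2632510-2632539, plus strand): gcggaggagcaaCACGTGgcccagcaaaag
NOP58, 437 bp downstream (chr2:203130864-203130893, plus strand): tgttacgtgtaaCACGTGgccccgccgttt
UTP18, upstream of the start site (chr17:49336673-49336756, plus strand): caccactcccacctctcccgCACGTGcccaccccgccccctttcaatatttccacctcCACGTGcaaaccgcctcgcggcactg
UTP20, 29 bp downstream (chr12:101673922-101673951, plus strand): gggctcaagccgCACGTGagaaagtctggg
WDR43, 778 bp downstream (chr2:29118275-29118304, plus strand): gtgccggctcacCACGTGttctcgtccccg
IMP4, 469 bp downstream (chr2:131100255-131100284, plus strand): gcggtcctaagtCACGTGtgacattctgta
NAT10, 178 bp downstream (chr11:34127277-34127306, plus strand): gttccgtgctccCACGTGcttccccttctc
PNO1, 67 bp downstream (chr2:68385017-68385046, plus strand): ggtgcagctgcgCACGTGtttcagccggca
PES1, 43 bp downstream (chr22:30987867-30987896, minus strand): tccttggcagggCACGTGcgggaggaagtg
GNL3, 487 bp downstream (chr3:52720411-52720440, plus strand): tctttccgtggcCACGTGcagactggccca
BRIX1, upstream of the start site (chr5:34914861-34914890, plus strand): ttagttgcgaaaCACGTGgcatgttctcgg
In 1 reference transcript per gene, the sites of NCL, NPM1, NOP58, WDR43 and GNL3 lay in intron 1. Those of UTP20, NAT10, PNO1 and PES1 lay in an untranslated part of an exon, and the rest upstream of the transcript. A match to CACGTG is a description of the sequence and does not show that N-Myc was bound to these bases.

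Promoters of nucleolar assembly factors were mostly in the N-Myc list. The N-Myc promoter list, which holds windows of 1 kb on each side of a RefSeq start site, named 36 of the 41 members, or 87.8% (95% CI 73.8 to 95.9%). The same list named 17.5% of all protein-coding genes (3526 of 20136), or 18.3% of those on autosomes. It held 19 of the 20 small-subunit factors, 12 of the 14 large-subunit factors, 3 of the 4 abundant nucleolar proteins and 2 of the 3 box C/D core proteins. Members were chosen with earlier results of these data known, so these shares only describe a chosen set. A common N-Myc peak, found in all 3 replicates, lay over the listed promoter of 35 members (85.4%, 95% CI 70.8 to 94.4%, against 17.1% of protein-coding genes). The JMJD6 promoter list named 1 member, PES1, or 2.44% (95% CI 0.0617 to 12.9%), against 0.626% of protein-coding genes, and with 1 gene in it the interval includes the background share.

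**Figure D1:**
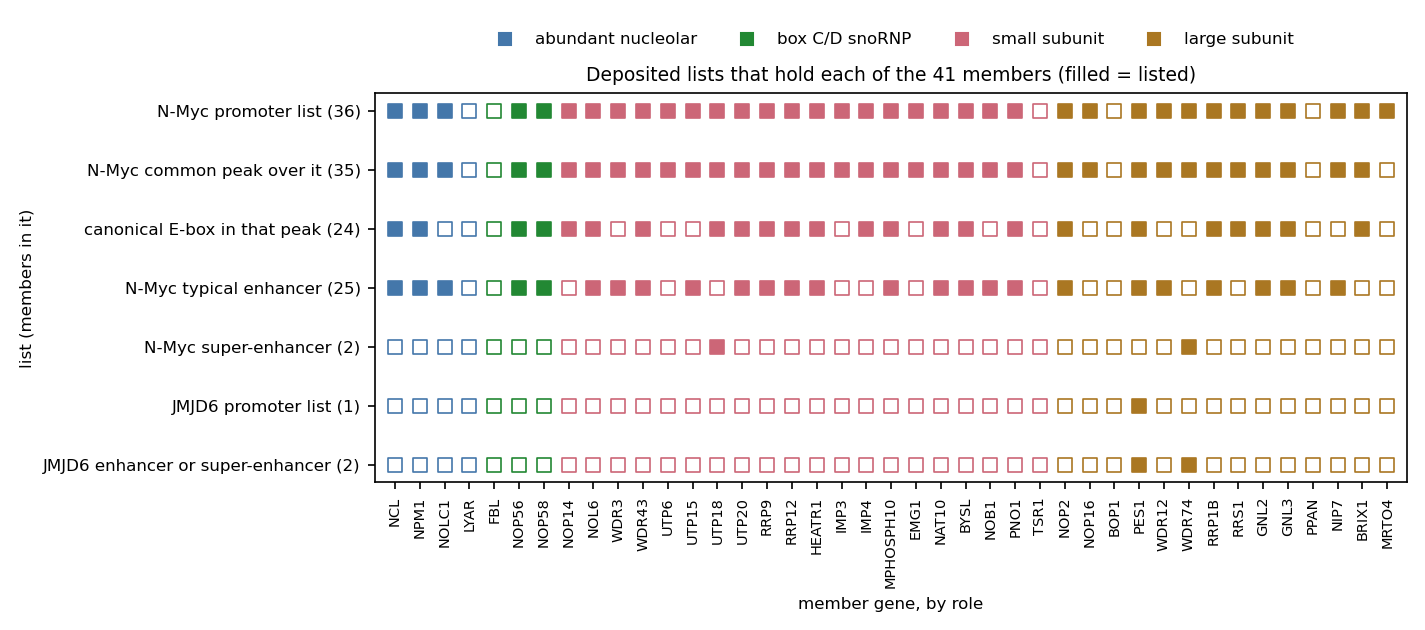
Each column is 1 of the 41 member genes, colored by role, and each row is a deposited list or feature. A filled square means that the member is in it, and the number of members is given in parentheses. The 36 filled squares of the N-Myc promoter list contrast with 1 filled square, PES1, in the JMJD6 promoter list, and PES1 and WDR74 alone are filled among JMJD6 enhancers or super-enhancers.

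Related gene lists, written from textbook roles with earlier results of these data known, are given beside the members for scale. Among 89 other ribosome biogenesis factors, among them further processome, large-subunit and nuclear export factors, 58 had an N-Myc promoter entry, or 65.2% (95% CI 54.3 to 74.96%), and 0 had a JMJD6 entry. Unlisted examples from it were SHQ1, NOP53, RRP1 and RRP7A, whose start sites lay 276, 26.2, 60.6 and 60.1 kb from the nearest N-Myc peak. The share was 71.3% (62 of 87, 95% CI 60.6 to 80.5%) for genes of cytosolic ribosomal proteins and 46.2% (36 of 78, 95% CI 34.8 to 57.8%) for genes of mitochondrial ribosomal proteins, and neither list had a JMJD6 promoter entry. The interval of the members overlaps those of the other ribosome biogenesis factors and of the cytosolic ribosomal proteins, and the differences between lists were not tested.

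**Figure D2:**
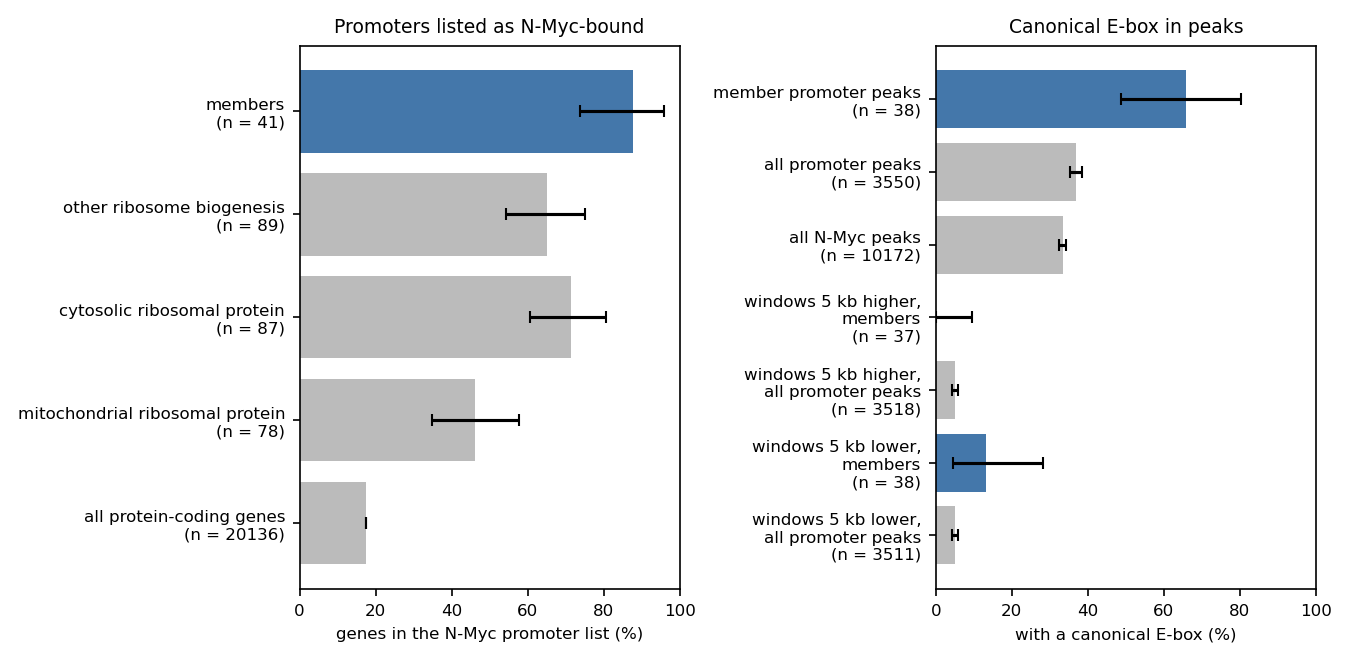
Left, the percentage of genes in the N-Myc promoter list for the members (n = 41), 3 related gene lists and all protein-coding genes. Right, the percentage of N-Myc peaks with a canonical E-box for member promoter peaks (n = 38), all promoter peaks, all N-Myc peaks and windows of peak width 5 kb towards higher or lower coordinates of the member peaks and of all promoter peaks. Error bars are exact binomial 95% intervals of counting error. Members stand at 87.8% on the left and at 65.8% on the right, and member windows at 0% and 13.2%.

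The N-Myc list of common peaks held 10172 peaks, of which 3550 lay over a listed promoter. Over the members' 38 promoter entries there were 38 such peaks, 2 each for NPM1, WDR74 and BRIX1 and 1 each for 32 members. Their median width was 514.5 bp (quartiles 391.5 and 679.75, range 207 to 1610 bp), against 452 bp for all promoter peaks (quartiles 343 and 612 bp). The 7 member peaks above 900 bp belonged to WDR74 (1610 bp), NOP58 (1431 bp), IMP4 (1071 bp), BRIX1 (1068 bp), WDR12 (1018 bp), NOLC1 (979 bp) and PNO1 (958 bp). Of all promoter peaks, 99.5% were narrower than that of NOP58. The narrowest belonged to RRP1B (207 bp) and NOP14 (228 bp). Width is the only graded measure in the lists, and it is not a measure of how much N-Myc was bound.

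**Figure D3:**
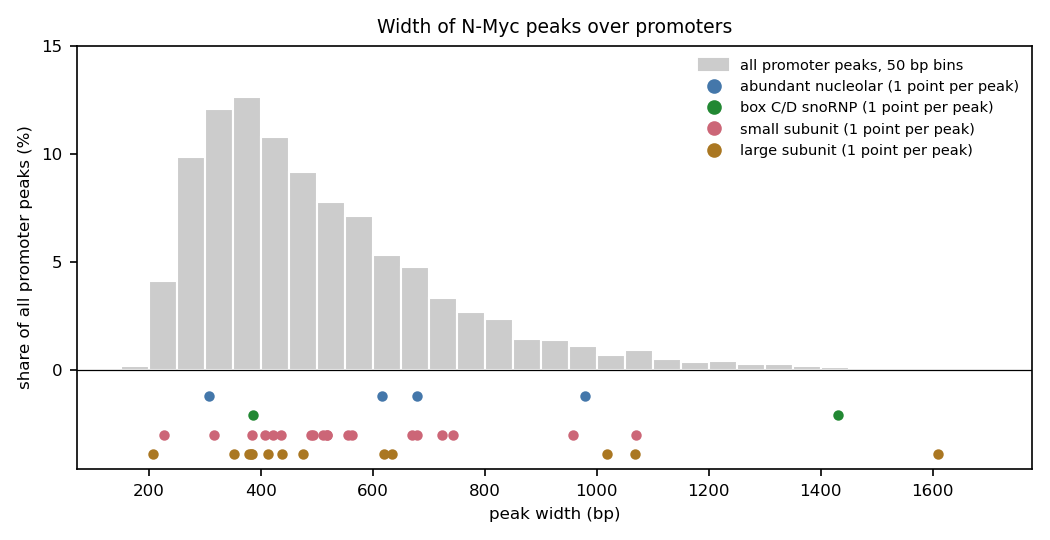
Grey bars show the share of all 3550 N-Myc promoter peaks in bins of 50 bp of width, and each colored point below the axis is 1 of the 38 member peaks, set out by role. Points spread from 207 to 1610 bp, most of them among the common widths and 7 of them above 900 bp.

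Member peaks lay close to the start site. Of the 38, 27 covered the listed start site of the member, or 71.1% (95% CI 54.1 to 84.6%), and the midpoint of 23 lay downstream of it (60.5%, 95% CI 43.4 to 76.0%). Measured by the rule used for all promoter peaks, from the nearest listed start site of any gene, 73.7% covered it (95% CI 56.9 to 86.6%) against 56.7% of all promoter peaks (95% CI 55.0 to 58.3%), and 63.2% had their midpoint downstream (95% CI 46.0 to 78.2%) against 45.5% (95% CI 43.8 to 47.1%). By that rule the median midpoint was 70.5 bp downstream, against -20 bp, upstream, for all promoter peaks. The lower ends of both member intervals lie just above the shares of all promoter peaks. By this rule a peak near start sites on both strands can count as downstream of the partner gene. Peaks over entries on both strands were 50% of member peaks and 22.0% of all promoter peaks.

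E-boxes were frequent in the member peaks. CACGTG occurred in 25 of 38, or 65.8% (95% CI 48.6 to 80.4%), against 36.9% of all promoter peaks (1309 of 3550, 95% CI 35.3 to 38.5%) and 33.4% of all N-Myc peaks. At least 2 copies were present in 8 member peaks, or 21.1% (95% CI 9.55 to 37.3%), against 6.59% of all promoter peaks (95% CI 5.80 to 7.46%). Median GC content was 58.8% in member peaks and 58.3% in all promoter peaks. In windows of the same width 5 kb away that held no N-Myc peak, CACGTG occurred in 0 of 37 member windows towards higher coordinates, which allows a share of up to 9.49% (exact 95% CI 0 to 9.49%), and in 5 of 38 towards lower coordinates (13.2%, 95% CI 4.41 to 28.1%), against 5.06% and 5.10% around all promoter peaks. The windows were matched to the peaks in width only. Their GC content was not computed, and its part in the contrast with the peaks was not tested. With the noncanonical CACGCG included, the shares were 73.7% of member peaks and 56.9% of all promoter peaks. Both motifs were searched on both strands, and neither can match the same bases as the other.

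Most of the member E-boxes lay downstream of the start site. Of 34 CACGTG sites in the member peaks, 27 lay downstream of the listed start site (79.4%, 95% CI 62.1 to 91.3%), and the median position was +95.5 bp with a range of -1204 to +1144 bp. Measured from the nearest listed start site of any gene, 29 of 34 were downstream (85.3%, 95% CI 68.9 to 95.05%), against 741 of 1583 sites in all promoter peaks (46.8%, 95% CI 44.3 to 49.3%). These intervals count sites as independent, although sites that share a peak mostly fall on the same side. The 2 sites of NPM1, for example, lay 11 bp apart, so the intervals are likely too narrow. The member peaks themselves lay downstream more often, as given above, and the part of this in the position of the sites was not tested. Sites near start sites on both strands can likewise count as downstream of the partner gene, and what this adds was not tested. Sites were placed against 1 reference transcript per gene of the GENCODE annotation. By it 14 were in an untranslated part of an exon, 11 in intron 1 and 9 upstream of the transcript. Some of these transcripts begin further downstream than the listed start site, and other transcripts of a gene can place a site differently. Within 100 bp of the peak midpoint lay 16 sites, in 12 of the 38 peaks. That is 31.6% of member peaks (95% CI 17.5 to 48.7%), an interval that includes the 23.04% of all promoter peaks with CACGTG so near the midpoint. Of the members with a promoter peak, 24 of 35 had a site in it: NCL had 3, 8 members had 2 and 15 had 1. The 11 members without one were NOLC1, WDR3, UTP6, UTP15, IMP3, EMG1, NOB1, NOP16, WDR12, WDR74 and NIP7, of which NOLC1 and WDR74 held 2 CACGCG each. The widest member peaks were thus found both with CACGTG (NOP58, IMP4, BRIX1) and without it (WDR74, WDR12, NOLC1).

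**Figure D4:**
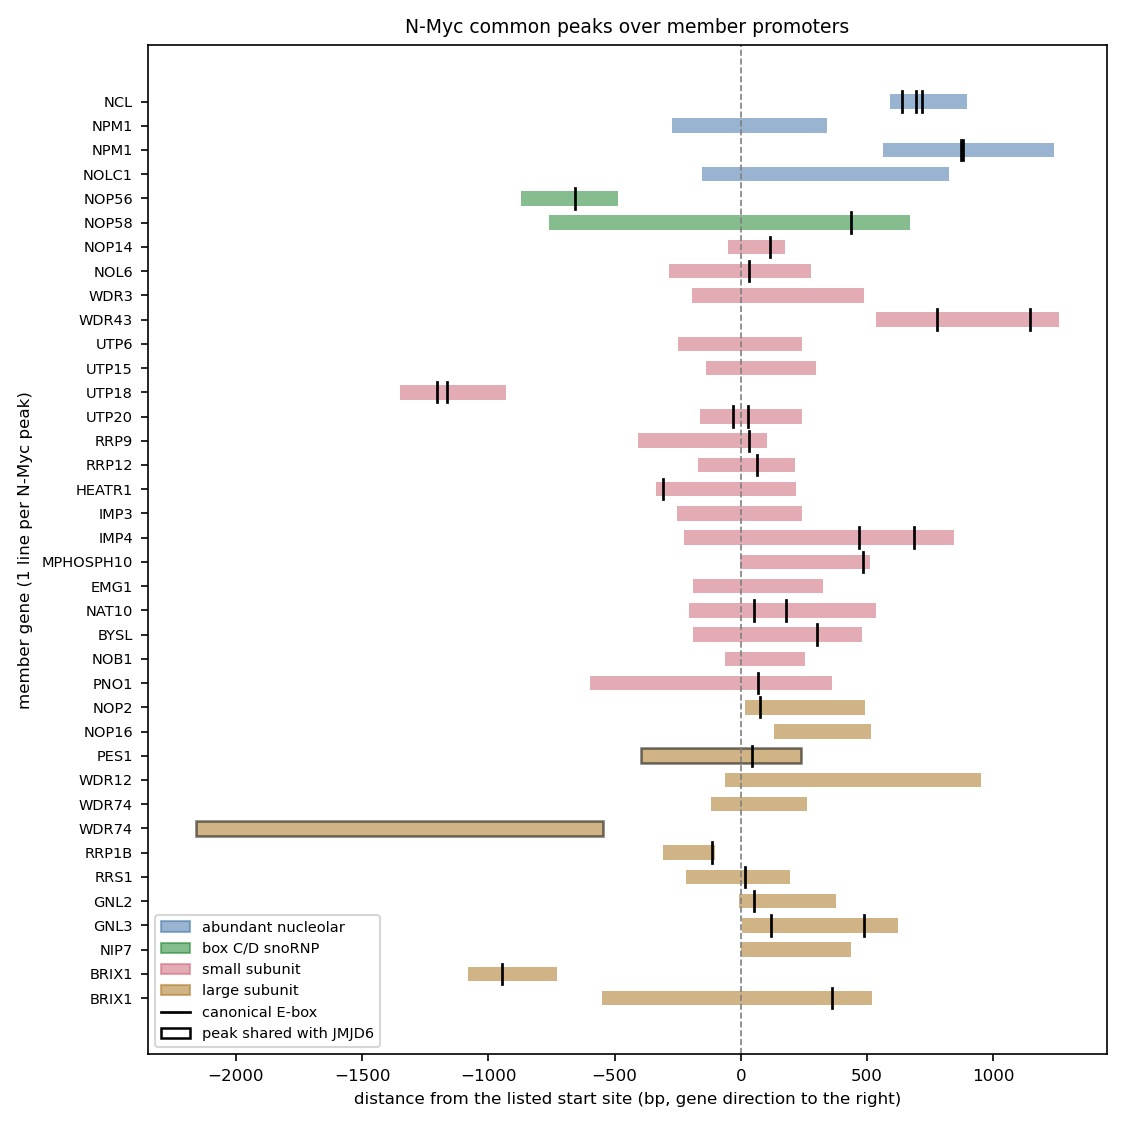
Each bar is 1 N-Myc peak over a member promoter, placed by its distance in bp from the listed start site (dashed line) with the gene running to the right and colored by role. Black ticks are canonical E-boxes and the 2 outlined bars are peaks shared with JMJD6. Of the 38 bars 27 cross the start site, and 27 of the 34 ticks lie to its right.

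Among the abundant nucleolar proteins, NCL encodes nucleolin, which binds ribosomal RNA precursors. Its peak of 308 bp (chr2:232328308-232328615) began 590 bp downstream of the start site, did not cover it, and held 3 CACGTG at +637, +694 and +719 bp, all in intron 1 of its reference transcript. NPM1 encodes nucleophosmin, a chaperone of histones and ribosomal proteins. It had a peak of 616 bp over the start site with 0 CACGTG and 4 CACGCG (chr5:170814435-170815050), and a peak of 679 bp centered 900 bp downstream with the 2 CACGTG printed above (chr5:170815269-170815947). NOLC1, a phosphoprotein that accompanies small nucleolar ribonucleoproteins, had a peak of 979 bp over its start site with 0 CACGTG and 2 CACGCG. In both NCL and NPM1 the canonical sites thus lay in a peak that did not reach the start site. LYAR, a zinc-finger protein of the nucleolus, was not listed, and the nearest N-Myc peak was 140.4 kb from its start sites.

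The box C/D core proteins NOP56 and NOP58 form the scaffold on which fibrillarin and the guide RNA sit. The NOP56 peak of 386 bp (chr20:2632307-2632692) lay upstream, with its midpoint at -678 bp and 1 CACGTG at -656 bp. The NOP58 peak of 1431 bp (chr2:203129677-203131107) spanned from -762 to +668 bp, with 1 CACGTG at +437 bp. FBL, which encodes fibrillarin itself, had no entry in any list, and its nearest N-Myc peak was 139.4 kb away. The RefSeq promoter of FBL nevertheless held 1 CACGTG and 1 CACGCG.

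Small-subunit factors made up 19 of the 36 listed members, and 13 of these 19 had CACGTG in their peak. UTP18 and UTP20 are components of the small-subunit processome. UTP18 had a peak of 422 bp (chr17:49336546-49336967) that ended at -930 bp, upstream of its start site, with sites at -1204 and -1166 bp. UTP20 had a peak of 408 bp over its start site with sites at -32 and +29 bp. WDR43, another processome protein, had a peak of 723 bp that began 537 bp downstream, with sites at +778 and +1144 bp. IMP4, a partner of the U3 ribonucleoprotein, had a peak of 1071 bp (chr2:131099571-131100641) with sites at +469 and +687 bp. The annotated IMP4 gene begins at chr2:131100450, downstream of the listed start site (chr2:131099798) and of the site at +469 bp. Its RefSeq promoter window held 2 CACGTG. NAT10, an RNA acetyltransferase, had a peak of 744 bp with sites at +50 and +178 bp and 2 CACGCG. PNO1, the partner of the nuclease NOB1 that makes the last cut of the small-subunit RNA, had a peak of 958 bp with 1 site at +67 bp. NOB1 itself had a peak of 317 bp with no CACGTG. Of these named factors UTP18, UTP20, WDR43, IMP4 and NAT10 had 2 sites each, PNO1 had 1 and NOB1 had 0.

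The other listed small-subunit factors each had a peak over the start site. HEATR1 and NOL6, both proteins of the processome, had peaks of 556 and 563 bp with 1 CACGTG each, at -307 and +32 bp. RRP9, a subunit of the U3 ribonucleoprotein that pairs with the precursor RNA, had a peak of 511 bp with 1 site at +32 bp. MPHOSPH10, which binds IMP3 and IMP4, had a peak of 519 bp with 1 site at +482 bp, while the 494 bp peak of IMP3 had none. NOP14, an early processome factor, had 1 site at +115 bp in its peak of 228 bp. RRP12, an export factor, had 1 site at +62 bp in a peak of 385 bp, and BYSL, which encodes bystin, 1 site at +300 bp in a peak of 671 bp. No CACGTG was present in the peaks of WDR3 (680 bp), UTP6 (489 bp), UTP15 (437 bp) and EMG1 (518 bp), an RNA methyltransferase. Within the Mpp10 complex of MPHOSPH10, IMP3 and IMP4 the number of E-boxes thus ran from 0 to 2 although all 3 promoters were listed.

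The remaining small-subunit factor, TSR1, which acts in late maturation, had no promoter entry but did have a peak. A common N-Myc peak of 1228 bp (chr17:2238978-2240205) covered 3 of the 4 annotated start sites of TSR1 and held 1 CACGTG and 3 CACGCG. This peak overlapped 0 entries of the N-Myc promoter list. Counted by position, as a peak that came within 1 kb of a start site in the annotation, TSR1 was thus occupied, MRTO4 (below) was not, and the number of members stayed at 36, against 20.8% of protein-coding genes.

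Large-subunit factors were listed for 12 of 14 members. GNL3, the GTPase nucleostemin, had a peak of 620 bp that began 5 bp downstream of its start site, with sites at +118 and +487 bp. BRIX1 had a peak of 1068 bp over the start site and a peak of 352 bp further upstream, with 1 CACGTG in each, at +359 and -947 bp. NOP2, an RNA methyltransferase, had a peak of 476 bp that began 16 bp downstream of its start site, with 1 site at +76 bp. GNL2, a GTPase related to GNL3, had 1 site at +51 bp in a peak of 382 bp. RRP1B had 1 site at -116 bp in its peak of 207 bp, which ended at -101 bp, and RRS1, a factor of large-subunit assembly, 1 site at +15 bp in a peak of 413 bp. The peaks of NOP16 (384 bp) and NIP7 (438 bp) had no CACGTG. Large-subunit factors thus had 1 or 2 sites or none, as the small-subunit factors did. WDR12, which forms a complex with PES1 and BOP1 that processes large-subunit RNA, had a peak of 1018 bp with no CACGTG. BOP1, the remaining subunit of this complex, was not listed, and its nearest N-Myc peak was 43.5 kb away. The complex was thus listed for 2 of its 3 subunits. PPAN was not listed either, with the nearest peak 13.5 kb away. MRTO4, related to the stalk protein of the large subunit, was in the promoter list beside EMC1, but no common peak lay within 41.8 kb of its start site. It was 1 of the 131 N-Myc promoter entries, of 5114 in all, without a common peak. These made 6 members without a promoter entry or without a peak over it. The RefSeq promoters of FBL and MRTO4 held 1 CACGTG each, those of LYAR, PPAN and TSR1 held 0, and none was found for BOP1.

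JMJD6 peaks touched the promoters of PES1 and WDR74. PES1, which leads the complex with BOP1 and WDR12, was the member with a JMJD6 promoter entry. A peak of 635 bp (chr22:30987690-30988324) with the same start and end in the N-Myc list, the JMJD6 list and the list of shared peaks covered its start site, and it held the CACGTG printed above, at +43 bp. A typical enhancer of 1718 bp (chr22:30986540-30988257) over this promoter named PES1 in the lists for N-Myc, for JMJD6 and for both.

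WDR74, a WD-repeat factor of the large-subunit precursor, lay in a super-enhancer of 32329 bp (chr11:62597955-62630283), again in the lists for N-Myc, for JMJD6 and for both. The region held 4 N-Myc peaks, of 948, 379, 1610 and 743 bp. The 379 bp peak covered a listed WDR74 start site. The 1610 bp peak (chr11:62608176-62609785) was shared with JMJD6 and lay over RNU2-2P (chr11:62609091-62609281), a gene of the U2 small nuclear RNA family, at the upstream end of WDR74. It held 0 CACGTG and 2 CACGCG, and it covered 453 bp of a WDR74 promoter entry. WDR74 was nonetheless absent from the JMJD6 promoter list, as 1 of 2 N-Myc promoter entries with a JMJD6 peak over them that the JMJD6 list did not hold. By the same count by position, 2 members had a JMJD6 peak, PES1 and WDR74, or 4.88% (95% CI 0.596 to 16.5%), against 0.780% of protein-coding genes. No share of members with JMJD6 can be read from 1 or 2 genes beyond these intervals.

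Beyond them, a JMJD6 peak lay within 100 kb of 2 more members, which made 4 of 41 (9.76%, 95% CI 2.72 to 23.1%) against 5.40% of protein-coding genes. For TSR1 it was a peak of 396 bp inside SGSM2, 11.2 kb away and not shared with N-Myc, and for NOLC1 a shared peak of 291 bp at the promoter of PPRC1, 19.1 kb away. Over all 41 members the median distance to the nearest JMJD6 peak was 1845 kb (range 0 to 26994 kb), against 2532 kb over all protein-coding genes. The JMJD6 list held 561 common peaks and the N-Myc list 10172, and this difference in size stands beside every comparison of the 2 proteins.

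Enhancer entries of the members were mostly their own promoters. The N-Myc lists of typical enhancers and super-enhancers named 27 of 41 members, or 65.9% (95% CI 49.4 to 79.9%), against 32.4% of protein-coding genes. Among genes that already had an N-Myc promoter entry the shares were 75% of members (27 of 36, 95% CI 57.8 to 87.9%) and 73.5% of protein-coding genes, which is close to the background. Of the 28 typical enhancers that named a member, 25 (89.3%) overlapped the member's own promoter entry, and 52.8% of all N-Myc typical enhancers overlapped some promoter entry. These overlaps are at odds with the stated removal of H3K27ac peaks around start sites before enhancers were stitched, so an enhancer entry of a member is not evidence of a region apart from its promoter. Their median length was 2355.5 bp, against 2553 bp for all N-Myc typical enhancers. They named 25 members: 3 abundant nucleolar proteins, both listed box C/D proteins, 13 small-subunit and 7 large-subunit factors.

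Some entries were distant. The 3 typical enhancers listed more than 10 kb from the member were 49.3 kb from NCL, 53.0 kb from NAT10 and 65.6 kb from PNO1. The one for NCL held a peak of 678 bp with 1 CACGTG (chr2:232379305-232379982) that was also over the promoter of LINC00471. The one for NAT10 held a peak of 1050 bp in CAPRIN1 (chr11:34074376-34075425), and the one for PNO1 a peak of 428 bp in PPP3R1 (chr2:68452310-68452737), both with no CACGTG. UTP18 was named by a super-enhancer of 15184 bp (chr17:49866104-49881287) in CA10 at a distance of 535.8 kb, with peaks of 457 and 422 bp. A region with an N-Myc peak outside every listed promoter thus existed for 3 members, NAT10, PNO1 and UTP18. The share of protein-coding genes with such a region, or with an entry more than 10 kb away, was not computed. The authors assigned regions to the nearest genes within 1000 kb, so an entry states proximity and not that the region acts on the member.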

How the data were processed

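Common peaks, promoters, typical enhancers and super-enhancers from ChIP-seq of CHP-134 cells (3 samples per antibody, grouped by the antibody in the labels) were analyzed as deposited. The deposited values are positions in bp. Per the labels and the methods of the study, the authors aligned reads to hg19 with BWA, processed them with SAMtools and bedtools, called peaks against input with MACS2 (version 2.1.1.20160309, q-value maximum 0.05) and kept peaks found in all 3 replicates, so weak peaks missed in 1 replicate are absent. Promoters were 1 kb on each side of RefSeq start sites. Enhancers came from H3K27ac data with ROSE, stitched within 12.5 kb after H3K27ac peaks around start sites were subtracted, and nearest genes from GREAT.

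Members were matched by symbol (41 of 41 in GENCODE version 44 on GRCh37), and peaks by an overlap of at least 1 bp. Of 4150 symbols in the N-Myc promoter list, 3531 matched a protein-coding gene and 374 another annotated gene. Of 38 member promoter entries, 34 were centered no more than 100 bp from an annotated start, with the largest distance at 652 bp. RefSeq promoter windows (250 bp upstream to 50 bp downstream, from GRCh38.p14) were found for 34 members. Analyses used Python 3.11.15, numpy 2.4.6, SciPy 1.17.1, pysam 0.24.0 and matplotlib 3.10.9. Only the counting of overlaps and of motifs was tested on simulated intervals and sequences.

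Members and gene lists were chosen with earlier results of these data known. Values are given in full for members with a JMJD6 entry, members without an N-Myc promoter entry, and, in each role group, the 2 with most CACGTG and the 2 with the widest peaks, ties included. MRTO4 was added after its values were seen. Alternatives covered matching by position, peak width and midpoint, the motif and its window, and the background genes.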

Additional observations from a re-analysis of the deposited data

How the results depend on the processing

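No test was run, so no call could be lost. Matching by position rather than by the list's gene name raised the members with a JMJD6 promoter peak from 1 to 2 (WDR74 was added). Keeping only regions with an N-Myc peak outside every promoter entry lowered the members with an enhancer or super-enhancer from 27 to 3. This follows from the regions' overlap with promoters, and the same share over all protein-coding genes was not computed. Reading only the 100 bp on each side of the peak midpoint lowered the share of member peaks with CACGTG from 65.8% to 31.6%, against 23.04% of all promoter peaks, which the member interval of 17.5 to 48.7% includes. In the other alternatives the members with an N-Myc promoter numbered 25 to 36. The lowest number came where peaks narrower than the median N-Myc peak (418 bp) were left out. The share of protein-coding genes under that width limit was not computed. The share of member peaks or members with an E-box was 61.5 to 73.7%. The low end is CACGTG in peaks of at least 418 bp, against 39.8% of all promoter peaks that wide. The high end counts CACGTG or CACGCG, against 56.9% of all promoter peaks. No paired analysis was possible because the lists pool the 3 replicates of each antibody, and for the same reason no replicate could be left out. Peaks found in fewer than 3 replicates, peak heights and read depth limit what can be said of the 5 members that were not listed.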

Other observations

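Other features of the member loci were as follows, as descriptions without a test. Promoter entries on both strands were frequent: 19 of 38 member peaks (50%, 95% CI 33.4 to 66.6%) lay over such entries, against 22.0% of all N-Myc promoter peaks (95% CI 20.6 to 23.4%). The partners included neighbors listed on the opposite strand, among them GRK4 beside NOP14, PHB2 beside EMG1, PARP3 beside RRP9, PBRM1 beside GNL3, COG8 beside NIP7 and RAD1 beside BRIX1, so a peak counted for these members was equally a peak of the partner.

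Several members carry small nucleolar RNAs in their introns, which are themselves guides for the modification of ribosomal RNA. In the annotation 7 members (NCL, NOP56, NOP58, GNL3, WDR43, TSR1 and PPAN) hosted 22 entries of such RNAs on their own strand. Of these hosts, 5 had an N-Myc promoter entry, TSR1 had a peak without an entry, and PPAN, host of SNORD105 and SNORD105B, had neither. The share of hosts among all protein-coding genes, and of hosts with an entry among all hosts, was not computed.

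The bases next to CACGTG were compared with those in all promoter peaks, of which the member peaks are a small part. C or G stood on both sides of 19 of 34 member sites (55.9%, 95% CI 37.9 to 72.8%), against 41.8% of the 1583 sites in all promoter peaks (95% CI 39.3 to 44.2%). T before or A after the site was found in 6 of 34 (17.6%, 95% CI 6.76 to 34.5%), against 31.5% (95% CI 29.2 to 33.9%). The form CCACGTGC or its reverse complement made up 11 of 34 sites (32.4%, 95% CI 17.4 to 50.5%), against 18.3% of all, and the palindrome TCACGTGA was at 0 of 34, which allows a share of up to 10.3% (exact 95% CI 0 to 10.3%), against 5.94%. Each of these member intervals includes the value of all promoter peaks, so no difference in flanking bases was detectable with 34 sites. The intervals count sites as independent, although some sites share a peak.

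In RefSeq promoter windows, which are independent of where N-Myc peaks lay, CACGTG was found in 15 of 34 members (44.1%, 95% CI 27.2 to 62.1%), against 8.90% of 15318 protein-coding genes (95% CI 8.45 to 9.36%). Among genes with an N-Myc promoter entry, the shares were 14 of 30 members (46.7%, 95% CI 28.3 to 65.7%) and 15.7% of 2960 genes (95% CI 14.4 to 17.1%). CACGCG was found in 23.5% of members (95% CI 10.7 to 41.2%) and 14.96% of protein-coding genes.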
